A study of Mus musculus with 12 samples.

Results

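Macrophage and myeloid genes were followed across the kidneys of wild type and Alport mice with and without drug treatment. The 35 genes listed were found by their symbol in the platform annotation, and 33 of them were measured, each by 1 probe set, among 19505 named genes and 22206 probe sets in all. No probe set here carried the symbols of Cd68, a lysosomal membrane glycoprotein of macrophages, or Clec7a, a receptor for fungal beta-glucan. The genes were read in 6 roles: 9 of the leukocyte and myeloid lineage, 6 typical of resident macrophages, 7 scavenger and lipid-handling genes, 5 Fc receptors and their adaptors, 3 of 4 activation and pattern recognition genes, and 3 of 4 lysosomal and antimicrobial genes.

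RNA of whole kidneys was measured on Affymetrix Clariom S arrays in 12 samples, 3 in each of 4 groups. One group was wild type and received vehicle. The other 3 groups carried the COL4A5 nonsense (G5X) mutation in the hemizygous state, the model of Alport syndrome, in which a chain of the type IV collagen of the glomerular basement membrane is lost, and received vehicle, losartan or metformin. Losartan is a blocker of the type 1 receptor for angiotensin II, and metformin, a biguanide, is used against high blood glucose. Dosing in drinking water was 125 µg/mL losartan or 2.5 mg/mL metformin from week 6 to 11, then 250 µg/mL or 5 mg/mL from week 12 to 20. The age given for every mouse is 16 weeks, which the second dosing period exceeds, and one label describes losartan as given together with another agent, so the drug named in each sample title defines the group here. Nothing in the labels states that the 3 samples of a group came from separate mice, so the p-values reflect the scatter among these arrays, which could be of technical origin.

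All values are log2 intensities of 1 probe set, and a difference of 1 is a doubling. The sample medians over all probe sets lay between 5.88 and 6.065 and the lower quartiles between 4.18 and 4.25. Of the 33 genes, 16 were at or above the sample median in all 12 samples, and 4 (Itgam, Itgax, Msr1 and Trem2) were below the lower quartile in at least 1. Detection calls were not used here, so a level near background could not be marked as such. Markers of the labelled tissue were present, since the mean of Lrp2, Slc34a1, Umod, Nphs1 and Aqp2 was 15.58 to 15.98 in every sample. A gene is said to have risen, fallen or changed where limma gave a Benjamini-Hochberg adjusted p under 0.05 over all 22206 probe sets. Changes are given ± the standard error of that fit, whose median over the 33 genes was 0.317, and all adjusted p-values below come from it. The number of arrays, 3 per group, limits the precision.

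Tissue macrophages of the kidney descend in part from embryonic precursors that renew themselves locally and in part from blood monocytes. Their survival depends on the receptor Csf1r and its ligands Csf1 and Il34, and monocytes enter inflamed tissue along Ccl2, which acts on Ccr2. The transcription factor Spi1 (PU.1) drives the myeloid programme, from surface receptors to lysosomal enzymes, by binding purine-rich DNA with the core GAGGAA. In progressive kidney disease macrophages accumulate around tubules and glomeruli, where they clear debris, present antigen and release mediators of inflammation and fibrosis.

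The letters GAGGAA were searched on either strand (TTCCTC on the opposite one) in RefSeq promoters of build GRCm38.p6. The search covered the 250 bases before each gene's start. The letters occurred in 15 of the 26 listed genes that had a promoter entry, or 57.7%. In the whole table they occurred in 6986 of 27025 genes, or 25.9%. Counted by promoter, 18 of 32 of the listed genes held them, or 56.2%, and 7639 of 32851 in the whole table, or 23.3%. The 15 genes include Cd68 and Clec7a, which were not measured, and Fcgr3, which did not pass against wild type. A match is a description of the letters and not of binding. The genes were listed as myeloid genes, and the shares were not split by whether a gene rose. A link between the letters and the change in Alport kidney was not tested. The 4 windows printed belong to the listed genes with a match whose change in Alport kidney was largest. They run 5′ to 3′ along the gene, and capitals mark the letters searched.
Mrc1, chr2:14229164-14229413, plus strand: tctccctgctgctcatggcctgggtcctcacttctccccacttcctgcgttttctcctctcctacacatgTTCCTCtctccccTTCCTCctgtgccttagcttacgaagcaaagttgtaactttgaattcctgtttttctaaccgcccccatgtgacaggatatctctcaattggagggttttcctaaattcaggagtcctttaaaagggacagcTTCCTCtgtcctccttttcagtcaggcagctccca
Ctss, chr3:95526536-95526785, plus strand: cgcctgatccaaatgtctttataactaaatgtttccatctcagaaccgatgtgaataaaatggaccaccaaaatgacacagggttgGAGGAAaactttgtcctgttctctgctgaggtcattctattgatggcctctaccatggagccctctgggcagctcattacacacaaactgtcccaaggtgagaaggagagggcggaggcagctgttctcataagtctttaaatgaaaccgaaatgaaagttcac
C1qb, chr4:136886201-136886450, minus strand: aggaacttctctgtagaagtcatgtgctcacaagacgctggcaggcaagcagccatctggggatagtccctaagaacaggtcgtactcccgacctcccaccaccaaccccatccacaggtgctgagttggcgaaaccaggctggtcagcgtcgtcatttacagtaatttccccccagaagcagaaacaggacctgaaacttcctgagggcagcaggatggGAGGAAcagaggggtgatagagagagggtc
Itgam, chr7:128062390-128062639, plus strand: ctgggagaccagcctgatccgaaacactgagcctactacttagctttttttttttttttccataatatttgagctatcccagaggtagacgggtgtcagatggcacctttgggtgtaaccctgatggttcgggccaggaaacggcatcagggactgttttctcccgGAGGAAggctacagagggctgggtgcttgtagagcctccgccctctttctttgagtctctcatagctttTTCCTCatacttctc
The Mrc1 window holds 3 matches, all on the strand opposite the gene, and they begin 180, 167 and 35 bases before the start. The Ctss window holds 1 on the gene's own strand, 164 bases before the start, and the C1qb window 1 on its own strand, 30 bases before. The Itgam window holds 1 on its own strand at 84 bases and 1 on the opposite strand at 15. The window of Lyz2, the gene with the largest change, held 0 matches. So did those of Ms4a7, whose change of 3.02 was larger than that of Itgam, and of Mpeg1, Fcer1g, Lgals3 and Cybb, which also rose. Gpnmb, Itgax, Cd163, Mertk and Fcgr2b, which did not rise by the test, held 0 as well. Adgre1, C1qa, Cd14, Cd86, Csf1r, Lst1, Msr1, Spi1 and Tyrobp had no entry in the table.

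In Alport kidney with vehicle most myeloid genes were higher than in wild type kidney, in each of the 6 roles. Against wild type, 25 of the 33 rose, 1 fell (Fcgr2b) and 7 did not pass the test, with changes from -0.58 to 6.31 and a median of 2.01. Over all probe sets 16.1% were called, 8.43% as higher and 7.71% as lower, and the median change was -0.03. In 28 of the 33 genes all Alport vehicle samples lay above all wild type samples, and in 1 gene all lay below. That was the case in 14.2% and 15.5% of all probe sets. In a whole-kidney sample more cells of a type and more RNA per cell cannot be told apart. Centring each sample on its median moved the median change of all probe sets to -0.17 and their calls from 1871 higher and 1711 lower to 1451 higher and 2842 lower. With that centring 24 of the myeloid genes were called, Lst1 and Cd86 being the ones lost.

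**Figure D1:**
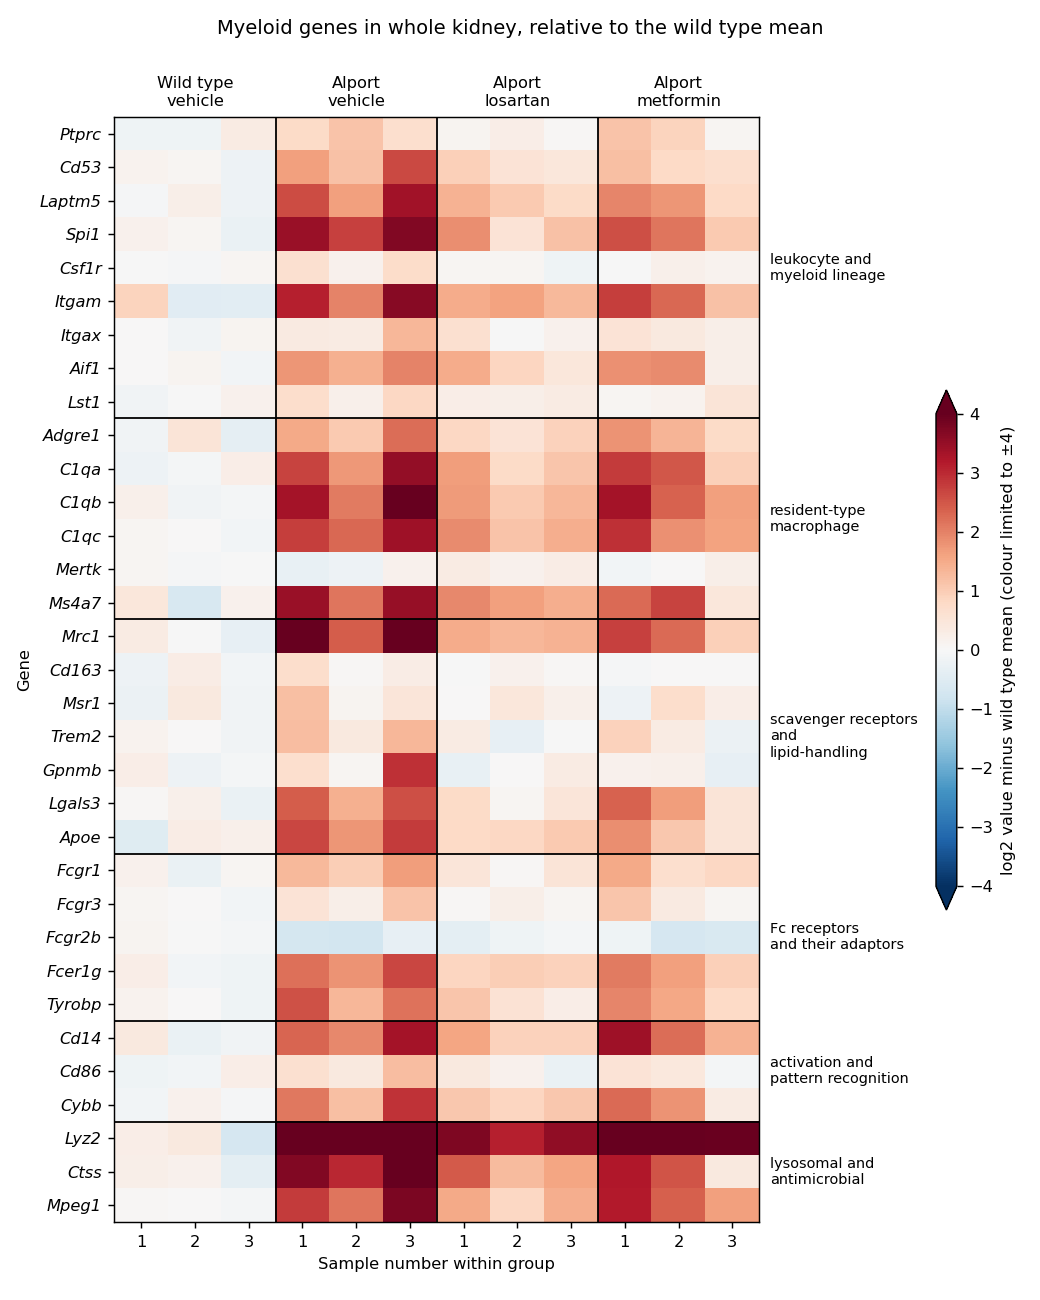
Log2 value of each of the 33 myeloid genes in each of the 12 samples minus the mean of the 3 wild type samples, with genes in blocks by role and the colour limited to ±4. The Alport vehicle columns are the darkest for most genes, Mertk and Fcgr2b are not, and the losartan columns and the third metformin column are paler.

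With losartan 16 of the 33 genes were lower than in Alport vehicle kidney by the test and 0 were higher; at an unadjusted p under 0.05 in limma the counts were 26 and 1, where 10.2% of all probe sets were lower and 10.2% higher. The changes ran from -2.85 to 0.39 with a median of -1.20, beside 7.9% of all probe sets called (3.79% higher and 4.11% lower) and a median of 0.01. All losartan samples lay below all Alport vehicle samples in 24 genes and above them in 1, Mertk, against 11.3% and 11.8% of all probe sets. The number of falls depended on single samples: 7 genes were called without Alport vehicle sample 1, 7 without Alport vehicle sample 3, 5 without losartan sample 2 and 8 without losartan sample 3. Apoe, Fcer1g, Lyz2, Mrc1 and Spi1 fell in every fit with a sample left out. The other 11 all lost their call without losartan sample 2, with adjusted p from 0.0606 for Tyrobp to 0.192 for C1qa.

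With metformin 3 of the 33 genes fell against Alport vehicle, namely Spi1, Mrc1 and Apoe, and 0 rose; at an unadjusted p under 0.05 in limma 13 were lower and 0 higher, where 9.05% of all probe sets were lower and 9.56% higher. The changes ran from -1.75 to 0.16 with a median of -0.58, beside 4.94% of all probe sets called (2.67% higher and 2.27% lower) and a median of -0.01. All metformin samples lay below all Alport vehicle samples in 2 genes, Spi1 and Cd163, against 9.88% of all probe sets. Leaving out 1 sample gave 0 called genes without Alport vehicle sample 1, Alport vehicle sample 3, metformin sample 2 or metformin sample 3. It gave 7 without Alport vehicle sample 2, 5 without metformin sample 1, and 1 without wild type sample 2, wild type sample 3 or losartan sample 3. Both drug comparisons and the comparison with wild type share the 3 Alport vehicle samples, so their values are set side by side without a test of their likeness.

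**Figure D2:**
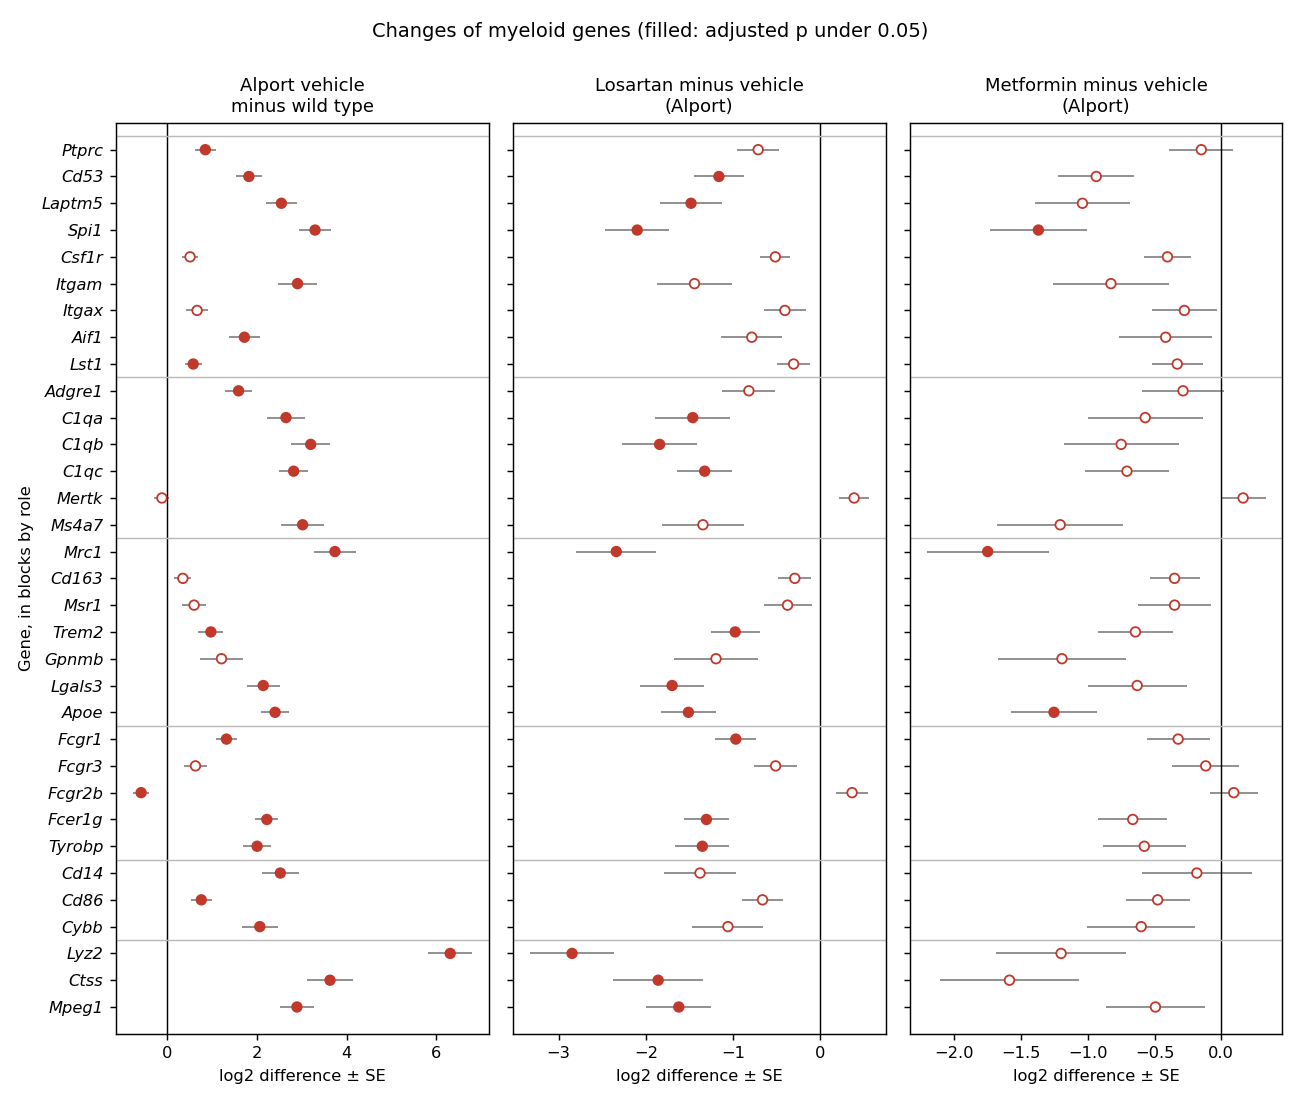
Log2 difference ± SE of each of the 33 myeloid genes for Alport vehicle minus wild type, losartan minus vehicle and metformin minus vehicle, with filled points for an adjusted p under 0.05. The horizontal scales of the 3 panels differ. Filled points number 26, 16 and 3, and those of the drug panels all lie left of 0.

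Among the lineage genes 7 of 9 rose in Alport kidney, with a median change of 1.72. Spi1 had the smallest p of the group. Its level was 9.58, 9.5 and 9.14 in wild type, 12.85, 12.15 and 13.11 with Alport vehicle, 11.27, 9.96 and 10.58 under losartan, and 12.0, 11.56 and 10.44 under metformin. The Alport vehicle samples were above all others, every losartan and metformin sample was above every wild type sample, and the drug groups overlapped each other. Spi1 rose 9.83-fold in Alport kidney (log2 3.30 ± 0.37, adjusted p = 1.79e-05). It fell by 2.10 ± 0.37 with losartan (adjusted p = 0.00287). It fell by 1.37 ± 0.37 with metformin (adjusted p = 0.0425), a call lost without any one of 8 samples, namely wild type 1 to 3, Alport vehicle 1 and 3, losartan 3 and metformin 2 and 3 (adjusted p up to 0.196).

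Itgam, the alpha chain of the complement receptor CR3, was 4.94, 3.60 and 3.62 in wild type, 7.17, 6.03 and 7.68 with Alport vehicle, 5.54, 5.65 and 5.36 under losartan and 6.83, 6.36 and 5.21 under metformin; it was chosen for display after its values were seen. The wild type samples were lowest, the losartan samples lay between them and the Alport vehicle samples, and the metformin samples overlapped both other Alport groups. It rose by 2.91 ± 0.43 (adjusted p = 0.000215), and its changes of -1.44 with losartan (adjusted p = 0.0519) and -0.83 with metformin (adjusted p = 0.33) did not pass. Laptm5, a lysosomal membrane protein of leukocytes, rose by 2.55 ± 0.35 and fell by 1.48 ± 0.35 with losartan (adjusted p = 0.000118 and 0.0171). Cd53, a leukocyte tetraspanin, rose by 1.82 ± 0.28 and fell by 1.16 ± 0.28 with losartan (adjusted p = 0.00031 and 0.019). Aif1 (Iba1), an actin-binding protein of macrophages, rose by 1.72 ± 0.35 (adjusted p = 0.00259) and did not pass with either drug.

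Ptprc, Lst1, Csf1r and Itgax had the smallest differences of the role. Ptprc (CD45), the phosphatase on all leukocytes, rose by 0.85 ± 0.24 (adjusted p = 0.0219), a call lost without wild type sample 1 (0.0845), wild type sample 2 (0.0809) or Alport vehicle sample 2 (0.0796). Lst1 rose by 0.58 ± 0.19 (adjusted p = 0.0455), and this call was lost without any one of 10 samples, all but Alport vehicle sample 2 and metformin sample 3, with adjusted p from 0.0511 to 0.177. Csf1r, the receptor for Csf1 and Il34, was 10.39, 10.37 and 10.49 in wild type and 11.05, 10.59 and 11.15 with Alport vehicle, against 10.23 to 10.51 with losartan and 10.41 to 10.61 with metformin. All of its Alport vehicle values lay above the wild type values, but the difference of 0.51 ± 0.17 did not pass (adjusted p = 0.0557). Itgax (CD11c), an integrin of dendritic cells and some macrophages and the gene of this role with the largest p, was 4.26, 4.11 and 4.36 in wild type, 4.59, 4.58 and 5.57 with Alport vehicle, 4.87, 4.22 and 4.43 under losartan and 4.80, 4.64 and 4.47 under metformin. Its difference of 0.67 ± 0.24 rested mainly on the third Alport vehicle sample and did not pass (adjusted p = 0.0746).

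Of the genes typical of resident macrophages 5 of 6 rose, with a median change of 2.74. All 3 chains of complement C1q were among them. C1qc was 5.16, 5.07 and 4.97 in wild type, 7.84, 7.35 and 8.47 with Alport vehicle, 6.96, 6.20 and 6.52 under losartan and 7.99, 6.88 and 6.67 under metformin. Every Alport sample of any treatment was above every wild type sample, losartan lay wholly below Alport vehicle, and metformin overlapped both. C1qc rose 7.06-fold (2.82 ± 0.32, adjusted p = 1.99e-05) and fell by 1.33 ± 0.32 with losartan (adjusted p = 0.0172). With metformin its change was -0.71 ± 0.32 (adjusted p = 0.238).

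The other chains moved in the same directions. C1qb was 5.88, 5.55 and 5.60 in wild type, 9.0, 7.76 and 9.87 with Alport vehicle, 7.37, 6.73 and 7.0 under losartan and 9.02, 8.04 and 7.32 under metformin. Losartan again lay wholly below Alport vehicle, and the metformin samples reached from the losartan range into the vehicle range. C1qb rose 9.19-fold (3.20 ± 0.43, adjusted p = 9.02e-05) and fell 3.59-fold with losartan (adjusted p = 0.0154). C1qa rose by 2.65 ± 0.43 (adjusted p = 0.000464) and fell by 1.46 ± 0.43 with losartan (adjusted p = 0.0485), the latter lost without any one of 8 samples, namely wild type 1 to 3, Alport vehicle 1 and 3, losartan 2 and 3 and metformin 2 (adjusted p up to 0.198).

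Ms4a7, a membrane protein of mature macrophages, rose by 3.02 ± 0.47 (adjusted p = 0.000317). Adgre1 (F4/80), the classical mouse macrophage antigen, was 6.03, 6.69 and 5.81 in wild type, 7.68, 7.22 and 8.41 with Alport vehicle, 7.01, 6.73 and 7.11 under losartan and 7.98, 7.53 and 6.94 under metformin. Losartan lay below the Alport vehicle range and metformin overlapped it. Adgre1 rose by 1.59 ± 0.30 (adjusted p = 0.00163), while its differences of -0.82 with losartan (adjusted p = 0.121) and -0.29 with metformin (adjusted p = 0.697) did not pass. Mertk, the receptor for uptake of apoptotic cells, which is made by other cell types as well, had the largest p of the role. Mertk was 10.58, 10.47 and 10.5 in wild type, 10.22, 10.30 and 10.69 with Alport vehicle, 10.85, 10.70 and 10.82 under losartan and 10.41, 10.53 and 10.76 under metformin. Its Alport vehicle and wild type ranges overlapped (-0.11 ± 0.17, adjusted p = 0.736), and its losartan samples all lay above the Alport vehicle samples and overlapped the metformin samples. The difference of 0.39 ± 0.17 to Alport vehicle did not pass (adjusted p = 0.197).

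**Figure D3:**
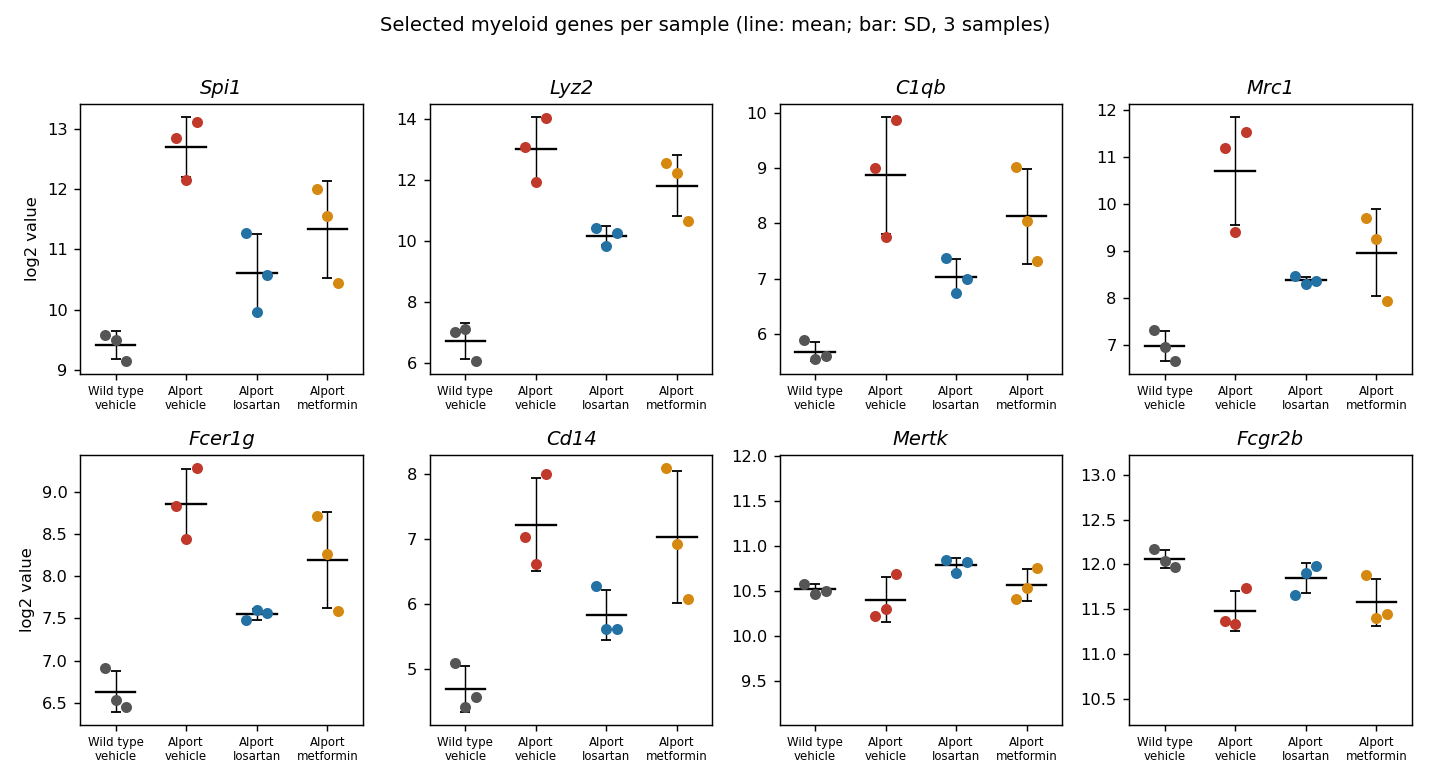
Log2 values per sample of 8 myeloid genes in the 4 groups, with the mean as a line and the SD of the 3 samples as a bar; the vertical axes span different ranges and do not start at 0. By group mean Spi1, Lyz2, C1qb, Mrc1, Fcer1g and Cd14 are highest with Alport vehicle and lower with losartan, whereas Mertk and Fcgr2b do not follow that order. The highest single value of Cd14 is that of metformin sample 1 (8.09).

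Scavenger and lipid-handling genes were divided: 4 of 7 rose, with a median of 1.21, and the same number fell with losartan, with a median of -1.20. Mrc1 (CD206), the mannose receptor, was 7.31, 6.95 and 6.66 in wild type, 11.20, 9.40 and 11.54 with Alport vehicle, 8.46, 8.30 and 8.36 under losartan and 9.71, 9.25 and 7.93 under metformin. The losartan samples stood close together below all Alport vehicle samples, and the metformin samples reached from below the losartan range into the Alport vehicle range. Mrc1 rose 13.4-fold (3.74 ± 0.46, adjusted p = 4.19e-05) and fell 5.06-fold with losartan (adjusted p = 0.00595). It fell 3.36-fold with metformin (adjusted p = 0.0388), a call lost without any one of 8 samples, namely wild type 2 and 3, Alport vehicle 1 and 3, losartan 2 and 3 and metformin 2 and 3 (adjusted p up to 0.182). Without Alport vehicle sample 2, the lowest of its group, the difference of Mrc1 was 4.40 to wild type, -3.0 with losartan and -2.41 with metformin.

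Apoe, a carrier of cholesterol made by macrophages and by other kidney cells, was 13.32, 14.10 and 14.01 in wild type, 16.47, 15.56 and 16.62 with Alport vehicle, 14.60, 14.65 and 14.86 under losartan and 15.67, 14.90 and 14.32 under metformin. The losartan values lay between those of wild type and Alport vehicle without touching either. Apoe rose 5.30-fold (adjusted p = 8.16e-05) and fell by 1.51 ± 0.32 with losartan (adjusted p = 0.00881). It fell by 1.25 ± 0.32 with metformin (adjusted p = 0.0339), a call lost without Alport vehicle sample 1 or 3 or metformin sample 2 or 3 (adjusted p up to 0.166). Lgals3 (galectin 3), a lectin of activated macrophages and of collecting duct epithelium, rose 4.42-fold and fell 3.25-fold with losartan (adjusted p = 0.000755 and 0.0108). Trem2, a lipid-sensing receptor, was 4.14, 4.02 and 3.88 in wild type and 5.25, 4.39 and 5.33 with Alport vehicle, against 4.35, 3.70 and 3.99 under losartan. It rose by 0.98 ± 0.28 (adjusted p = 0.0248) and fell by the same amount with losartan (adjusted p = 0.043), but 6 of its 12 values were below the sample's lower quartile. Its rise was lost without wild type sample 2 or 3 or Alport vehicle sample 1 or 3 (adjusted p up to 0.107). Its fall was lost without any one of the 8 samples named for C1qa (adjusted p up to 0.183).

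The scavenger receptors Cd163 and Msr1 did not pass in any comparison. Cd163, which takes up haemoglobin bound to haptoglobin and had the largest p of the role, was 5.05, 5.57 and 5.16 in wild type, 5.95, 5.32 and 5.57 with Alport vehicle, 5.23, 5.43 and 5.30 under losartan and 5.22, 5.29 and 5.28 under metformin. Its wild type and Alport vehicle ranges overlapped, with a difference of 0.35 ± 0.19 (adjusted p = 0.24). Msr1 was below the lower quartile in 10 of 12 samples and differed by 0.60 ± 0.27 (adjusted p = 0.164). Gpnmb, a glycoprotein of lipid-laden macrophages, was 5.57, 5.11 and 5.24 in wild type and 5.97, 5.37 and 8.22 with Alport vehicle. Its difference of 1.21 ± 0.48 came largely from the third Alport vehicle sample and did not pass (adjusted p = 0.102).

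Among the Fc receptors, which bind antibody, 3 of 5 genes of the role rose and 1 fell. Fcer1g, the signalling chain that activating Fc receptors share, was 6.91, 6.53 and 6.45 in wild type, 8.83, 8.44 and 9.29 with Alport vehicle, 7.48, 7.60 and 7.56 under losartan and 8.72, 8.26 and 7.59 under metformin. All Alport samples were above wild type, and losartan was below all Alport vehicle samples with little spread. Fcer1g rose 4.67-fold (2.22 ± 0.26, adjusted p = 2.66e-05) and fell 2.47-fold with losartan (adjusted p = 0.00631). With metformin its change was -0.66 ± 0.26 (adjusted p = 0.165). Tyrobp (DAP12), the adaptor of Trem2, rose 4.02-fold and fell 2.56-fold with losartan (adjusted p = 0.000306 and 0.0146). Fcgr1, the high-affinity IgG receptor, rose by 1.32 ± 0.24 and fell by 0.97 ± 0.24 with losartan (adjusted p = 0.000997 and 0.0193).

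The low-affinity receptors differed from their partners in direction or size. Fcgr2b, the inhibitory receptor, which is found on B cells and endothelium as well, was 12.17, 12.04 and 11.97 in wild type, 11.37, 11.34 and 11.74 with Alport vehicle, 11.66, 11.90 and 11.98 under losartan and 11.88, 11.40 and 11.45 under metformin. Every Alport vehicle value was below every wild type value, and losartan overlapped both; the gene is given by sample because it was the single one to fall. It fell by 0.58 ± 0.18 (adjusted p = 0.0382), a call lost without any wild type sample or without Alport vehicle sample 1 or 2 (adjusted p = 0.0658 to 0.124). Fcgr3, an activating receptor and the gene of the role with the largest p, was 9.60, 9.54 and 9.42 in wild type, 10.06, 9.74 and 10.66 with Alport vehicle, 9.57, 9.74 and 9.61 under losartan and 10.63, 9.89 and 9.59 under metformin. The Alport vehicle values were above all wild type values, yet 0.63 ± 0.25 did not pass (adjusted p = 0.104). Fcgr2b and Fcgr3 are close in sequence, and an array may not separate them fully.

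All 3 measured activation genes rose, with a median of 2.07, and by limma 0 of them passed with either drug. At an unadjusted p under 0.05 the count was 3 lower with losartan and 0 with metformin, where 10.2% and 9.05% of all probe sets were lower. Cd14, the co-receptor for lipopolysaccharide, was 5.09, 4.41 and 4.56 in wild type, 7.02, 6.61 and 8.0 with Alport vehicle, 6.27, 5.61 and 5.61 under losartan and 8.09, 6.92 and 6.07 under metformin. Losartan lay between wild type and Alport vehicle, and the metformin samples spanned nearly the whole Alport range. Cd14 rose 5.75-fold (2.52 ± 0.41, adjusted p = 0.000473). Its differences from Alport vehicle were -1.38 ± 0.41 with losartan (adjusted p = 0.0512) and -0.18 ± 0.41 with metformin (adjusted p = 0.883). Cybb, the catalytic subunit of the phagocyte NADPH oxidase, rose by 2.07 ± 0.41 (adjusted p = 0.00203) and stood at -1.06 with losartan (adjusted p = 0.136).

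Cd86, a co-stimulatory ligand for T cells, was 4.72, 4.78 and 5.14 in wild type, 5.53, 5.28 and 6.12 with Alport vehicle, 5.27, 5.05 and 4.62 under losartan and 5.42, 5.29 and 4.79 under metformin. The Alport vehicle samples were above all wild type and losartan samples. It rose by 0.76 ± 0.24 (adjusted p = 0.0391), a call lost without wild type sample 1 or 2 or Alport vehicle sample 1 or 3 (adjusted p = 0.0687 to 0.183).

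Lysosomal and antimicrobial genes had the largest median rise of the roles, 3.63, and all 3 rose. Lyz2, the lysozyme of macrophages and monocytes, was 7.0, 7.11 and 6.05 in wild type, 13.09, 11.93 and 14.06 with Alport vehicle, 10.44, 9.84 and 10.26 under losartan and 12.56, 12.25 and 10.67 under metformin. The Alport groups were all far above wild type, losartan was lowest among them, and metformin overlapped Alport vehicle but not losartan. Lyz2 rose 79.2-fold (6.31 ± 0.49, adjusted p = 7.1e-07), the largest change among the 33 genes, and fell 7.19-fold with losartan (adjusted p = 0.00253). With metformin it changed by -1.20 ± 0.49 without passing (adjusted p = 0.185). The near-identical Lyz1 may share signal with its probe set.

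Ctss (cathepsin S), a protease that trims the invariant chain of MHC class II, was 7.48, 7.42 and 6.88 in wild type, 10.95, 10.26 and 11.46 with Alport vehicle, 9.71, 8.53 and 8.85 under losartan and 10.47, 9.79 and 7.65 under metformin. The losartan samples lay between the wild type and the Alport vehicle range, and the third metformin sample was close to wild type. It rose 12.4-fold (adjusted p = 0.000154) and fell 3.63-fold with losartan (adjusted p = 0.0374), the fall being lost without wild type sample 2, Alport vehicle sample 1 or 3 or losartan sample 2 or 3 (adjusted p up to 0.161). Its change of -1.59 ± 0.52 with metformin did not pass (adjusted p = 0.0949). Mpeg1 (perforin-2), a pore-forming protein of phagocytes, rose 7.43-fold and fell 3.08-fold with losartan (adjusted p = 6.24e-05 and 0.0142).

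Set against wild type, drug-treated Alport kidneys kept higher values for many of these genes. With losartan 2 of 33 were above wild type by the test, Lyz2 and C1qc, where 0.549% of all probe sets were called (0.401% higher and 0.149% lower). The median difference was 0.77, and in 21 genes all losartan samples were above all wild type samples, against 8.4% of all probe sets, and 0 had them all below, against 8.32%. Lyz2 was 11.0-fold above wild type (3.46, adjusted p = 0.00348), a call lost with the trended robust prior (adjusted p = 0.0554). C1qc was 2.81-fold above it (adjusted p = 0.0454), a call lost without any one of 8 samples, namely wild type 1 to 3, Alport vehicle 1, losartan 1 to 3 and metformin 2, which left 1 called gene (adjusted p = 0.0609 to 0.221). Leaving out metformin sample 3 gave 4 called genes. With metformin 18 of 33 were above wild type by the test, 0 were below (1 at an unadjusted p under 0.05, against 9.01% of all probe sets) and the median was 1.31, where 2.7% of all probe sets were higher and 1.48% lower. This count was 9 without wild type sample 2, 8 without wild type sample 3, 7 without metformin sample 1 and 8 without metformin sample 2. C1qb, C1qc, Cd14, Fcer1g, Lyz2, Mpeg1 and Spi1 were above wild type in every fit with a sample left out.

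By role the differences from wild type that remained were unequal. Lysosomal and antimicrobial genes stood at a median of 1.77 with losartan and 2.40 with metformin, and resident-type genes at 1.27 and 1.95. Activation genes stood at 1.01 and 1.47, lineage genes at 0.66 and 0.89, and Fc receptors and adaptors at 0.35 and 1.00. Scavenger and lipid-handling genes stood at 0.23 and 0.33, a median over genes that differed widely. Mrc1 was at 1.40 with losartan (adjusted p = 0.232) and 1.99 with metformin (adjusted p = 0.0222), and Apoe at 0.89 and 1.15 (adjusted p = 0.282 and 0.0528). Lgals3 was at 0.44 and 1.51 (adjusted p = 0.745 and 0.0305). Trem2 was at 0.00 and 0.33, with a 95% interval for losartan from -0.59 to 0.59. Cd163, Msr1 and Gpnmb, which did not pass as raised in Alport vehicle kidney, were at 0.06, 0.23 and 0.02 under losartan. Under metformin these values were 0.00, 0.25 and 0.02. The metformin calls of Mrc1 and Lgals3 were each lost without wild type sample 2 or 3 or metformin sample 1 or 2, and that of Lgals3 without wild type sample 1 as well (adjusted p up to 0.117 and 0.156). That of Mrc1 was also lost with the trended robust prior (adjusted p = 0.0751). No test between the roles was made.

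Metformin and losartan were compared directly as well. By limma 0 of the 33 genes passed, where 0.045% of all probe sets did (0.018% higher and 0.027% lower). The smallest adjusted p was 0.346, for Lyz2. At an unadjusted p under 0.05 in limma 9 were higher with metformin and 0 lower. Of all probe sets 8.37% passed at that threshold, 4.24% as higher and 4.13% as lower. The value was higher with metformin in 29 of 33 genes, with a median of 0.44, beside -0.01 over all probe sets. In 3 genes all metformin samples were above all losartan samples, against 5.77% of all probe sets. In 0 genes all were below, against 7.74%. Lyz2 was 1.65 ± 0.49 higher with metformin, with a 95% interval from 0.62 to 2.68. For Cd14 the interval ran from 0.32 to 2.07, for Lgals3 from 0.28 to 1.86, and for Csf1r from -0.26 to 0.48. On each side of the estimate these intervals reached 0.671 at the median over the 33 genes, and their reach differed from gene to gene. They are not adjusted for the number of probe sets, so an interval that leaves out 0 is not a call. Without metformin sample 3 there were 2 calls, Lgals3 (adjusted p = 0.0431) and Lyz2 (adjusted p = 0.0426).

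The order of the samples within a group was counted over the genes, with tied samples both counted. Alport vehicle sample 3 was the highest of its group in 29 of 33 genes and sample 2 the lowest in 31. Metformin sample 1 was the highest in 25 and sample 3 the lowest in 26. The counts were more spread in the other groups: under losartan samples 1, 2 and 3 were the highest in 21, 6 and 6 genes and the lowest in 7, 17 and 10, and in wild type the highest in 18, 9 and 6 and the lowest in 8, 10 and 16. Averaged over the 33 genes, the level above the wild type mean was 1.98, 1.32 and 2.45 in the Alport vehicle samples, 0.99, 0.67 and 0.75 under losartan, and 1.75, 1.40 and 0.66 under metformin. The wild type samples were at 0.08, 0.01 and -0.09. Metformin samples 1 and 2 thus fell within the Alport vehicle range and sample 3 just below the losartan range, and their range was wider than that of the losartan samples. Over all probe sets, correlations between samples were 0.990 to 0.994 within groups and 0.975 to 0.993 between them.

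Factors that recruit and sustain macrophages were read together with receptors for them (Csf2ra, Csf2rb, Ccr2 and Cx3cr1), which myeloid cells themselves carry. Of the 11 genes of this list 8 rose in Alport kidney, 5 fell with losartan and 2 fell with metformin. Over all probe sets 8.43% were higher and 7.71% lower in Alport kidney, 4.11% lower with losartan and 2.27% lower with metformin. The lists that follow are read beside the same shares. Ccl2, the chief attractant of monocytes, was 4.87, 5.19 and 5.16 in wild type, 10.08, 8.62 and 8.36 with Alport vehicle, 6.42, 6.11 and 5.42 under losartan and 7.37, 6.57 and 5.91 under metformin. The Alport vehicle samples were above all others and all drug-treated samples above wild type. Ccl2 rose by 3.95, fell by 3.04 with losartan and fell by 2.40 with metformin (adjusted p = 8.12e-06, 0.00053 and 0.00426). Its receptor Ccr2 rose by 2.07 (adjusted p = 0.000849), and its change did not pass with losartan (-0.98, adjusted p = 0.121) or metformin (-0.72, adjusted p = 0.31).

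Csf1 was 9.05, 9.30 and 9.71 in wild type, 12.68, 11.32 and 12.45 with Alport vehicle, 10.03, 10.21 and 10.01 under losartan and 11.22, 10.57 and 9.29 under metformin. Both drug groups lay below all Alport vehicle samples, and metformin reached into the wild type range. Csf1 rose by 2.80, fell by 2.07 with losartan and fell by 1.79 with metformin (adjusted p = 0.000129, 0.005 and 0.0167), beside a receptor, Csf1r, that did not pass. The fall of Csf1 with metformin was lost without Alport vehicle sample 1 (adjusted p = 0.0876), Alport vehicle sample 3 (0.057) or metformin sample 3 (0.0743). Il34, the other ligand of Csf1r, rose by 0.98 (adjusted p = 0.0437), a call lost without wild type sample 2 or 3, Alport vehicle sample 1 or 3 or losartan sample 2 (adjusted p up to 0.17). Cx3cl1, a chemokine displayed on endothelium and tubules, rose by 1.83 (adjusted p = 1.14e-05), fell by 0.76 with losartan (adjusted p = 0.0226, up to 0.11 without Alport vehicle sample 1 or 3 or losartan sample 1 or 3) and was at -0.17 with metformin (adjusted p = 0.718). Its receptor Cx3cr1 rose by 1.53 (adjusted p = 0.00345).

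**Figure D4:**
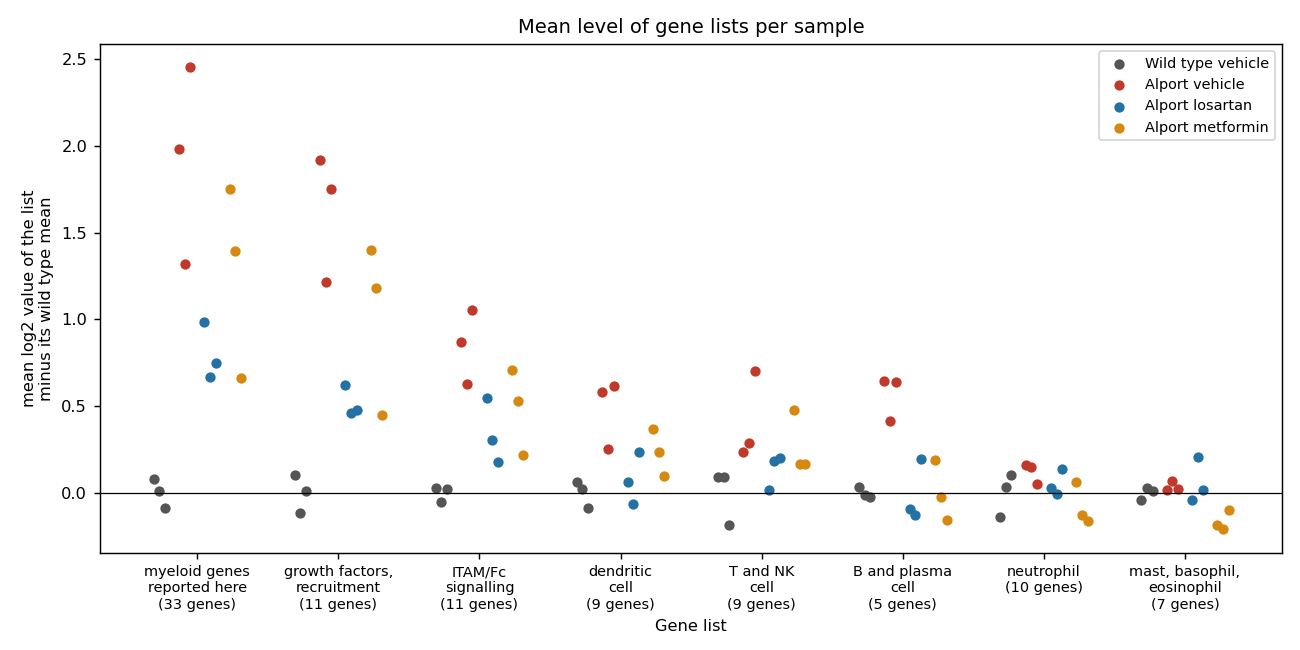
Mean log2 value of 8 gene lists in each of the 12 samples minus the list's wild type mean, 1 point per sample and 1 colour per group. The myeloid genes reach 2.45 above wild type and the recruitment list 1.92, whereas the neutrophil list stays at or below 0.16.

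Genes that act beside the myeloid receptors moved less uniformly. Of 9 measured myeloid transcription factors 2 rose and 2 fell. Among these calls, that of Cebpb was lost without any one of 9 samples and that of Maf without any one of 4. Runx1, a regulator of blood cell development, rose by 2.78 and fell by 1.60 with losartan (adjusted p = 6.15e-05 and 0.0123), the fall being lost without Alport vehicle sample 1 (0.0682) or losartan sample 2 (0.0668). Nr1h3 (LXR alpha), the oxysterol receptor that is abundant in epithelium too, fell by 1.03 (adjusted p = 0.000581) and rose by 0.77 with each drug (adjusted p = 0.0125 for losartan and 0.0175 for metformin). The rise of Nr1h3 was lost with losartan without losartan sample 2 (adjusted p = 0.0749), and with metformin without Alport vehicle sample 1, Alport vehicle sample 3 or metformin sample 3 (adjusted p up to 0.0917). Of 11 genes that carry the signal of Fc receptors and their adaptors 6 rose, 1 fell with losartan and 1 fell with metformin. Hcls1, a cytoskeletal adaptor, rose by 2.35 and fell by 1.26 with losartan (adjusted p = 3.75e-05 and 0.0136), the fall being lost without Alport vehicle sample 1 or 3 or losartan sample 2 (adjusted p up to 0.0755). Syk, the kinase that docks on Fcer1g and Tyrobp, rose by 0.84 (adjusted p = 0.0135) and fell by 0.92 with metformin (adjusted p = 0.0234), while its change of -0.49 with losartan did not pass (adjusted p = 0.206). The rise of Syk was lost without wild type sample 2 or 3 or Alport vehicle sample 3 (adjusted p up to 0.073), and its fall without Alport vehicle sample 3 or any metformin sample (up to 0.087).

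The partners of Cybb rose in 3 of 4 cases. Ncf1, a cytosolic subunit, rose by 1.58 and fell by 0.70 with losartan (adjusted p = 1.48e-05 and 0.0192, the latter up to 0.107 without Alport vehicle sample 1 or 3 or losartan sample 2), whereas Cyba, the membrane partner that kidney cells express too, was at -0.20 (adjusted p = 0.455). Of 11 other lysosomal genes 5 rose, 3 fell with losartan and 1 fell with metformin. Ctsk (cathepsin K) rose by 2.25, fell by 0.97 with losartan and fell by 0.84 with metformin (adjusted p = 1.88e-06, 0.00684 and 0.0211), the last being lost without Alport vehicle sample 1 or 3 or any metformin sample (up to 0.0808). Lamp1 and Cd63, which are made by most cells, were at 0.36 and 0.28 and did not pass (adjusted p = 0.127 and 0.285). Of 8 genes of circulating monocytes 5 rose, among them Fn1 by 4.14 (adjusted p = 7.1e-07), which fibroblasts and tubules make too, and Plac8 by 2.56 (adjusted p = 3.29e-06). Ly6c2 and Chil3, which mark classical monocytes, were at -0.20 and -0.03 (adjusted p = 0.534 and 0.948), and Ly6c2 may share signal with the near-identical Ly6c1.

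Some markers of other blood cells changed with the Alport genotype as well, and their part in the myeloid values was not tested. Over all probe sets 8.43% were called higher against wild type and 4.11% lower with losartan. Of 9 dendritic cell genes 3 rose (Xcr1, Cd209a and Clec10a), with a list mean of 4.52 to 4.67 in wild type, 4.86 to 5.22 with Alport vehicle, 4.55 to 4.84 with losartan and 4.71 to 4.98 with metformin. Flt3, Zbtb46 and Clec9a were below the sample's lower quartile in all 12 samples. Clec10a, a lectin of dendritic cells and macrophages, rose by 1.29 (adjusted p = 0.000287), and Xcr1 and Cd209a fell with losartan by 1.09 and 1.19 (adjusted p = 0.0387 and 0.0198). The rise of Xcr1 was lost without any wild type sample, Alport vehicle sample 1 or 3 or metformin sample 2 (adjusted p up to 0.198), and its fall without wild type sample 2 or 3, Alport vehicle sample 1 or 3 or losartan sample 2 or 3 (up to 0.188). The rise of Cd209a was lost without wild type sample 2 or 3 or Alport vehicle sample 3 (up to 0.0819), and its fall without Alport vehicle sample 1 or 3 or losartan sample 2 (up to 0.0983). Of 9 T and NK cell genes 2 rose, Cd3e by 1.22 and Cd4 by 0.93 (adjusted p = 0.00397 and 0.00669). The list mean was 4.69 to 4.97 in wild type, 5.12 to 5.58 with Alport vehicle, 4.90 to 5.08 with losartan and 5.04 to 5.36 with metformin.

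Of 5 B and plasma cell genes 1 rose, Jchain, the joining chain of secreted antibody, by 2.76 (adjusted p = 8.47e-06), and it fell by 3.0 with losartan and fell by 2.63 with metformin (adjusted p = 0.000117 and 0.000207). The list mean was 4.35 to 4.41 in wild type, 4.79 to 5.02 with Alport vehicle, 4.24 to 4.57 with losartan and 4.22 to 4.56 with metformin. This mean was moved mainly by Jchain. The median change of the 5 genes was 0.14 in Alport kidney, with 3 higher and 2 lower. It was -0.11 with losartan and -0.15 with metformin. Of 10 neutrophil genes 2 rose, Csf3r by 0.77 and Retnlg by 0.60 (adjusted p = 0.018 and 0.0445). At an unadjusted p under 0.05 in limma 2 neutrophil genes and 1 B and plasma cell gene were higher. Of all probe sets 13.5% were higher at that threshold. The call of Csf3r was lost without wild type sample 3 or Alport vehicle sample 1 or 3 (up to 0.0734), and that of Retnlg without any wild type or Alport vehicle sample, losartan sample 3 or metformin sample 2 (up to 0.168). The neutrophil list had a mean of 3.98 to 4.22 in wild type, 4.17 to 4.28 with Alport vehicle, 4.12 to 4.25 with losartan and 3.96 to 4.18 with metformin. The defining neutrophil genes S100a8, Camp and Ltf were below the lower quartile in all 12 samples. Of 7 mast cell, basophil and eosinophil genes 0 were called in any comparison by limma (0 to 2 per comparison at an unadjusted p under 0.05, where 8.37% to 27.6% of all probe sets passed), and their list mean stayed between 3.72 and 4.14 in all samples.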

How the data were processed

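Affymetrix Clariom S arrays had been hybridised with whole-kidney RNA, 1 array for each of the 12 samples. The table the authors deposited holds 1 value per probe set and sample, taken as log2 from its range, and Transcriptome Analysis Console 4.0 is named in the submitters' processing notes. For background correction, normalization and summarisation, the method is not given in the sources used here. Names came from the platform annotation, with symbols checked against RefSeq (GRCm38.p6, for names and promoter sequences): 19572 of 22206 had 1 symbol and 2634 had none. A gene with several probe sets was read from the one with the highest mean.

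Groups followed the sample titles. A mean per group was fitted to all probe sets and all 12 samples with limma 3.58.1 in R 4.3.3 (lmFit and eBayes, 8 residual degrees of freedom, two-sided), p-values were adjusted by Benjamini and Hochberg within each comparison, and the procedure was tested on simulated data. The genes, roles and other lists were chosen with earlier results of these data known, so lists are described by counts and medians and carry no test. Values per sample are given for the genes with the smallest and largest p of each role in Alport vehicle against wild type; Itgam, Csf1r, C1qb, Adgre1, Apoe, Trem2, Gpnmb, Fcgr2b, Ccl2 and Csf1 were added after their values were seen. Of the other lists, the plan was to name the gene with the smallest p in each comparison, but not all of these genes are given. The other genes of those lists were named after their values were seen. Alternatives were centring of samples, quantile normalization, removal of the dimmest 33.3% of probe sets, a trended robust prior, array weights, a fit restricted to both groups of a comparison, a 2-fold change with an unadjusted p, a replicate block and removal of single samples. Same-numbered samples did not deviate together (correlations -0.14 to 0.078), so the numbers were not taken as pairs.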

Additional observations from a re-analysis of the deposited data

How the results depend on the processing

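Of 3942 values of a myeloid gene under an alternative, 3651 stayed on the same side of the threshold, 291 crossed it and 0 turned sign while called; 53 turned sign while passing in neither fit. The number of called genes, 26 of 33 for Alport vehicle against wild type, ran from 21 to 28 with 1 sample left out. For losartan against vehicle it ran from 5 to 24 (16 with all samples), and for metformin against vehicle from 0 to 7 (3 with all samples). It ran from 0 to 2 for metformin against losartan, from 1 to 4 for losartan-treated Alport against wild type and from 7 to 21 for metformin-treated Alport against wild type. The falls with metformin numbered 0 with the trended robust prior, 0 with array weights, 0 with only the groups compared and 8 by an unadjusted p with a 2-fold change. That unadjusted rule called 5 genes for metformin against losartan and 13 for losartan-treated Alport against wild type, where the trended robust prior called 1 (C1qc, not Lyz2) and only the groups compared 13. The cause of these shifts was not tested. With a replicate block the 6 counts were 24, 17, 2, 0, 2 and 18. Fcgr2b and Cd86 lost their calls against wild type, C1qa its fall with losartan and Apoe its fall with metformin. Other genes gained a fall with losartan, since the count there went from 16 to 17. Fcgr2b also lost its call with quantile normalization and with only the groups compared, each with 24 genes higher and 0 lower. Leaving out the dimmest 33.3% of probe sets removed Itgax, Msr1 and Trem2. Centring turned the split of all calls from 842 higher and 913 lower to 1238 and 724 for losartan, from 592 and 504 to 827 and 381 for metformin, and from 599 and 329 to 513 and 486 for metformin-treated Alport against wild type. With 1 sample left out the calls over all probe sets ran from 2549 to 3756, from 716 to 2073, from 266 to 1320, from 5 to 91, from 37 to 191 and from 346 to 1065 in the 6 comparisons, in the order above. Of the 42 calls of other listed genes against wild type 28 were kept in every fit, of 20 with losartan 7 and of 8 with metformin 2.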
